A study of Mus musculus with 9 samples.

Results

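The genes described here encode intermediate filament proteins. They are the simple epithelial keratins Krt7, Krt8, Krt18 and Krt19, the cytoplasmic filament genes Vim (vimentin) and Nes (nestin), and the nuclear lamin genes Lmna, Lmnb1 and Lmnb2. They were taken by symbol from the deposited gene tables, in which each symbol was found once in all 9 libraries, and they make up 9 of the 56691 genes listed. All 9 passed the filter on low counts. The study made RNA-seq libraries from embryoid bodies (EBs) of BVSC mouse pluripotent stem cells (PSCs), a line that carries a Blimp1-mVenus (BV) and a Stella-CFP reporter. The cells were sorted by the BV reporter into BV+ cells, taken as primordial germ cell-like cells (PGCLCs), and BV- cells, taken as somatic cells. The PSCs held either a p20 vector for NRF1 overexpression (NRF1 OE) or an empty vector (Ctrl), and every group, Ctrl included, was given doxycycline (DOX) at 1.5 μg/mL from day 2 to day 5 of differentiation. There were 2 libraries of BV+ cells with NRF1 OE, 2 of BV+ cells with Ctrl, 3 of BV- cells with NRF1 OE and 2 of BV- cells with Ctrl. The labels do not say whether libraries of a group came from separate cultures, and p-values then measure only the spread between these libraries. Each library is a population of sorted cells, so that fewer cells of a type and less RNA per cell cannot be told apart.

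Intermediate filaments are rope-like polymers that give cells and nuclei mechanical strength. Keratins are obligate partners, in which a type II chain (Krt7, Krt8) pairs with a type I chain (Krt18, Krt19), and Krt8 with Krt18 is the first pair made in the early embryo. Vim forms homopolymers in mesenchymal cells, and Nes, best known from neural stem cells, needs a partner such as Vim to assemble. Lamins line the inner nuclear membrane: the B-type lamins, Lmnb1 and Lmnb2, are made in nearly all cells, whereas the A-type lamins from Lmna are low in PSCs and rise as cells differentiate.

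Total counts per library ranged from 13702162 to 19625460. The labels were compared with the genes that define them. Nrf1, the gene overexpressed, was at 91.1 and 90.4 CPM (counts scaled to a common library size) in the BV+ Ctrl libraries and at 95.7 and 99.4 CPM in the BV+ NRF1 OE libraries, a log2 fold change of 0.10 with an edgeR adjusted p of 0.489. In BV- cells it was at 99.1 and 105 CPM with Ctrl and at 119, 122 and 126 CPM with NRF1 OE (log2 fold change 0.26, edgeR adjusted p = 0.0718). Prdm1, which encodes Blimp1, did not differ detectably between BV+ and BV- cells, with log2 fold changes of 0.05 with Ctrl (edgeR adjusted p = 1) and 0.00 with NRF1 OE (edgeR adjusted p = 0.998). Of 12 germ cell markers, edgeR called 0 between BV+ and BV- cells with Ctrl (3 at an unadjusted p under 0.05, 1 by DESeq2). With NRF1 OE it called 2 higher in BV+ cells (Itgb3 and Fut4), beside 9.90% of all genes tested. It called 3 lower there (Tfap2c, Dppa3 and Nanos3), beside 3.85% of all genes tested. Hence BV+, BV-, NRF1 OE and Ctrl are used below as the names the libraries carry. A trend of expression with transcript GC content also set libraries apart: its rank correlation across 14253 genes lay between -0.561 and -0.467 in the Ctrl libraries, was 0.308 and 0.00674 in the BV+ NRF1 OE libraries, and was 0.0445, 0.666 and 0.531 in the BV- NRF1 OE libraries. Genes are not independent replicates. Transcript GC content was 46.5% for Vim and between 52.3% and 57.6% for the other 8 genes, and values with an offset for GC content and length are given below where they change a call.

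NRF1 binds GC-rich palindromes in promoters, so promoter sequences were searched for GCGCA and GCGC with 1 base of any kind between them, for TATAA and for GGGCGG, a core of GC boxes, on both strands. RefSeq promoter windows of 250 bases before and 50 after the start (GRCm38.p6) were found for 7 of the 9 genes, and Lmna and Lmnb2 had 2 starts each. The first of these was in 4.6% of 32851 windows and in 0 of those of the 7 genes. TATAA was in 24.9% of windows and was found for Krt8, Krt18 and Vim, and not in the windows of Krt7, Nes, Lmna or Lmnb2. GGGCGG was in 35.7% of windows and was found 4 times for Krt7, 2 times for Nes and once each for 1 start of Lmna and 1 start of Lmnb2. A match is a description of these letters, not evidence of a site. The sequences below run from 90 bases before the start to 10 bases from it on, for the keratin pair, Vim and Nes, which were called with NRF1 OE in BV+ cells, and for Lmnb2, which was not. Capitals mark TATAA or GGGCGG on either strand, with overlapping matches merged.
Krt8, chr15:102004333-102004432, minus strand: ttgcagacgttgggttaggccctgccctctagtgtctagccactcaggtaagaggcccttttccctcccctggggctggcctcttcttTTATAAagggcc
Krt18, chr15:102028126-102028225, plus strand: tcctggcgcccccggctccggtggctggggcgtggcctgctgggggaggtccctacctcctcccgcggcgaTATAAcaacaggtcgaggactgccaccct
Vim, chr2:13574221-13574320, plus strand: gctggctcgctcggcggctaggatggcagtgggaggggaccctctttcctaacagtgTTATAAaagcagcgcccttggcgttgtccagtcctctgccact
Nes, chr3:87971003-87971102, plus strand: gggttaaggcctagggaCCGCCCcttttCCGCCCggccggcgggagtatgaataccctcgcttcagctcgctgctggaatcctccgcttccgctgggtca
Lmnb2, chr10:80918236-80918335, minus strand: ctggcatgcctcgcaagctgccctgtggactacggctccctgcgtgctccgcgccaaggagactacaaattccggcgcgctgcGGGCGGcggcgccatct
Krt8 and Krt18 lie on chromosome 15 on opposite strands, with 1 annotated gene between them, Gm36026, which overlaps Krt8 and had between 0 and 3 counts in a library. Gm671, which overlaps Krt7 on the opposite strand, had 0 counts in every library.

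The levels of the 9 genes spanned a wide range (deposited FPKM, which is per counted gene length). That length exceeded the longest annotated transcript, among others, for Krt7 (7100 against 4094 bases), Vim (4743 against 2926) and Lmna (5837 against 3948). For Krt8 and Krt18 the lengths were equal. The order of the genes below is thus an order in deposited FPKM, and close ranks could change with another length. Lmnb1 was the highest of the 9 in every group, at 191 ± 6.27 FPKM in BV+ Ctrl (SD, n = 2), 182 ± 11.4 in BV+ NRF1 OE (n = 2), 195 ± 3.49 in BV- Ctrl (n = 2) and 184 ± 8.58 in BV- NRF1 OE (n = 3). Krt7 was the lowest in every group, between 0.05 and 0.61 FPKM in a library. In BV- Ctrl cells the order after Lmnb1 was Lmnb2 (23.7 FPKM), Krt18 (15.0), Vim (9.98), Krt8 (9.64), Lmna (1.22), Nes (1.10) and Krt19 (0.835), in which Vim and Krt8 overlapped, as did Lmna with Nes and Nes with Krt19. In BV+ NRF1 OE cells it was Krt18 (92.0 FPKM), Krt8 (75.4), Vim (42.8), Lmnb2 (27.2), Nes (12.8), Lmna (6.80) and Krt19 (6.05), in which Krt18 overlapped Krt8 and Lmna overlapped Krt19. Thus Lmnb2 lay above the keratin pair and Vim in BV- Ctrl cells and below them in BV+ NRF1 OE cells.

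**Figure D1:**
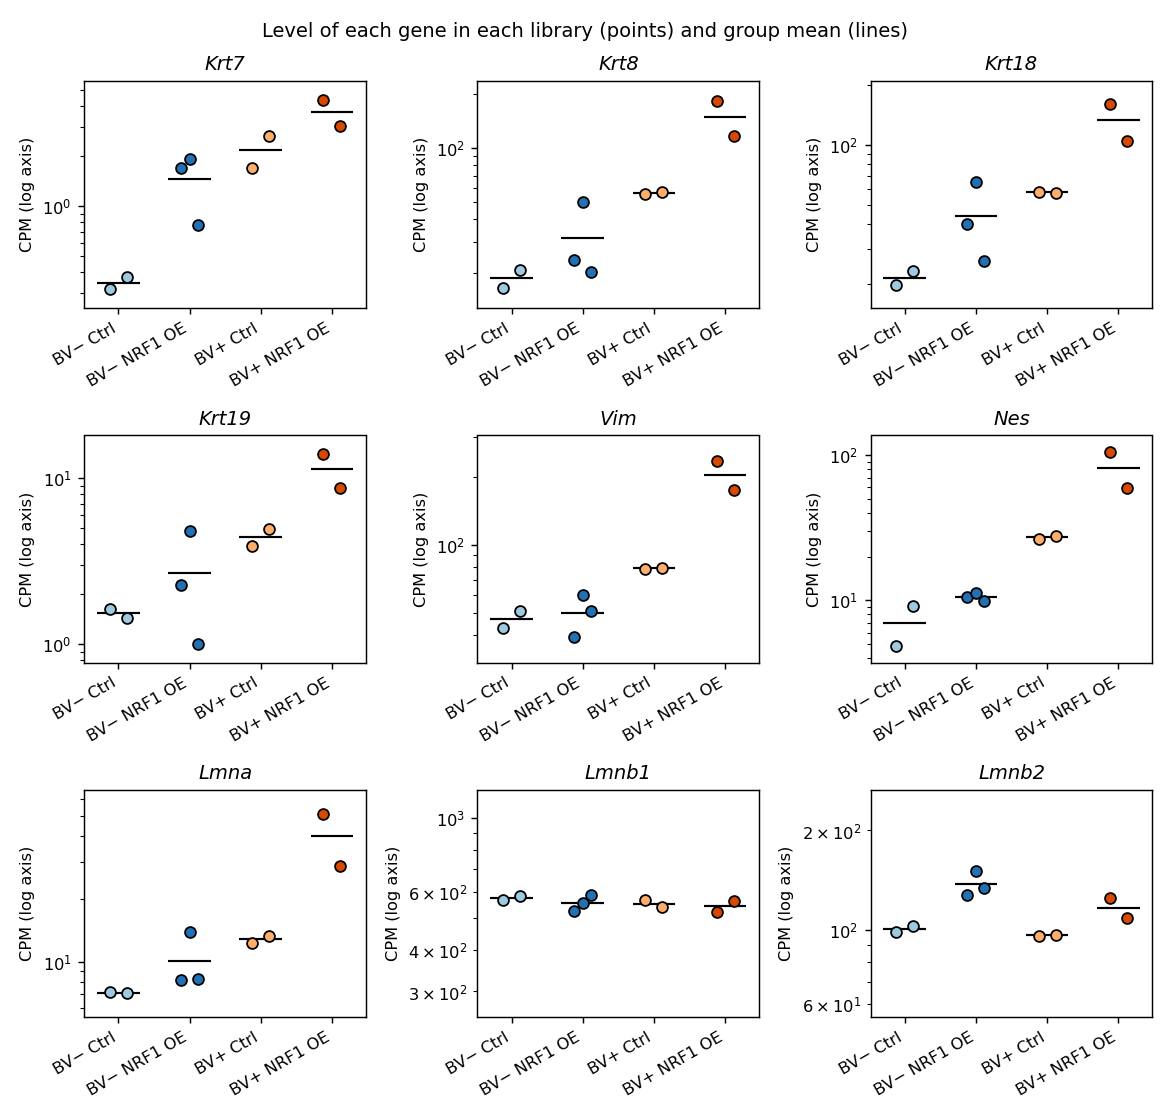
CPM (log axis) of the 9 genes in each of the 9 libraries (points), with the group mean as a line. For Krt7, Krt8, Krt18, Krt19, Vim, Nes and Lmna the 2 BV+ NRF1 OE libraries lie above all other libraries, for Krt7 only slightly. Lmnb1 lies between 522 and 585 CPM throughout.

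In BV+ cells, NRF1 OE libraries had more keratin, Vim, Nes and Lmna transcripts than Ctrl libraries, while their Lmnb1 levels overlapped. edgeR called 5 of the 9 genes, all of them higher: Krt8, Krt18, Vim, Nes and Lmna. Of all 16903 genes tested, 6.24% were called higher in this comparison. The median log2 fold change of the 9 genes was 1.33, beside 0.04 for all genes tested, and 8 of the 9 had NRF1 OE libraries that did not overlap the Ctrl libraries on the higher side, as did 38.1% of all genes. With the replicate number as a block edgeR called 0 of the 9, and the adjusted p of these 5 lay between 0.0534 and 0.0718. With the block and offsets for GC content and length it called the same 5. The calls of the main fit rested on few libraries. Without either BV+ Ctrl library, or without replicate 1 of BV+ NRF1 OE, edgeR called 0 of the 9 (between 5 and 6 at an unadjusted p under 0.05), and without replicate 1 of BV- Ctrl it called 3.

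In BV- cells, edgeR called 3 of the 9 genes higher with NRF1 OE, the keratins Krt7 and Krt18 and the B-type lamin Lmnb2, and 10.2% of all genes tested were called higher. The median log2 fold change of the 9 genes was 0.58, beside 0.01 for all genes tested, and 5 of the 9 had NRF1 OE libraries wholly above the Ctrl libraries, as did 29.4% of all genes. With an offset for GC content and length only Krt7 was called of the 9, and 0 of the 9 were called (between 3 and 5 at an unadjusted p under 0.05) without either BV- Ctrl library, either BV+ Ctrl library or replicate 3 of BV- NRF1 OE. The BV+ libraries enter here because all 9 libraries share 1 estimate of the spread. With the replicate number as a block edgeR called 0 of the 9, and also 0 with the block and the offsets.

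Between the sorted populations, BV+ libraries had higher levels of all 4 keratins, Vim, Nes and Lmna than BV- libraries, and the fold changes were larger with NRF1 OE than with Ctrl for each of these but Krt7 (tested below as the difference of the NRF1 OE effect). With NRF1 OE, edgeR called these 7 of the 9 genes higher in BV+ cells, beside 9.90% of all genes tested. The libraries of the same 7 did not overlap, as those of 20.3% of all genes did not with BV+ higher, and the median log2 fold change of the 9 was 2.00, beside -0.00492 for all genes. With Ctrl it called 2 of the 9 higher, Krt7 and Nes, beside 1.10% of all genes tested, although the same 7 genes had BV+ libraries above the BV- libraries, as did 22.6% of all genes. With Ctrl the number called depended on the setting, from 0 without replicate 2 of BV+ Ctrl or replicate 1 of BV- Ctrl (5 and 6 at an unadjusted p under 0.05) to 7 without replicate 2 of BV- NRF1 OE. It was 1 without replicate 1 of BV+ Ctrl, replicate 2 of BV- Ctrl or replicate 1 of BV- NRF1 OE, and 4 without replicate 3 of BV- NRF1 OE. With NRF1 OE it was 4 without replicate 1 of BV+ NRF1 OE. These comparisons share libraries: the BV+ NRF1 OE libraries, for example, enter both the comparison with Ctrl and that with BV- cells.

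**Figure D2:**
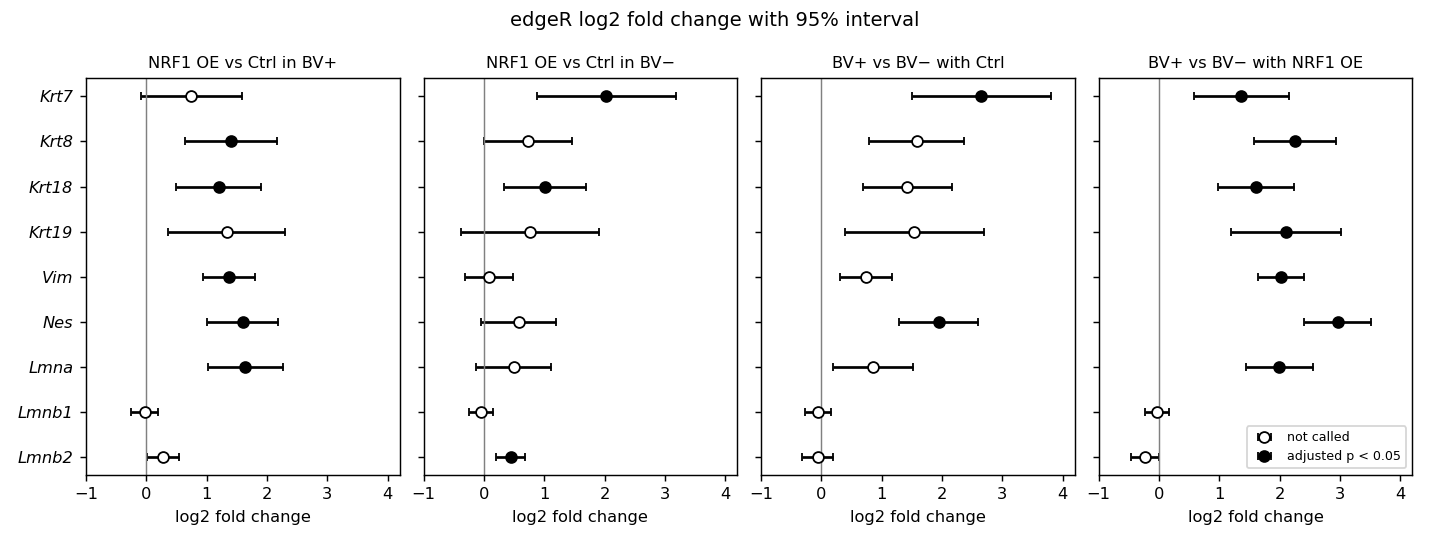
edgeR log2 fold changes with 95% intervals for the 9 genes in the 4 comparisons, filled where the adjusted p was under 0.05. Lmnb1 lies near 0 in all 4 panels, and 7 genes are called higher in BV+ cells with NRF1 OE.

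Krt8, the type II chain of the pair found in simple epithelia, had 28.9 and 29.7 FPKM in the BV+ Ctrl libraries and 91.3 and 59.5 FPKM in the BV+ NRF1 OE libraries. Its log2 fold change was 1.41 ± 0.345 (SE, edgeR adjusted p = 0.0376), or 2.65-fold. Replicate 1 was the higher of the NRF1 OE libraries, and without it the log2 fold change was 1.05. In BV- cells Krt8 was at 8.58 and 10.7 FPKM with Ctrl and at 11.9, 25.3 and 10.0 FPKM with NRF1 OE. These groups overlapped, replicate 2 of NRF1 OE stood above the other BV- libraries, and the log2 fold change of 0.73 did not pass the test (edgeR adjusted p = 0.13). With NRF1 OE, Krt8 was 4.77-fold higher in BV+ than in BV- cells (log2 fold change 2.25 ± 0.312, edgeR adjusted p = 0.000582). With Ctrl the difference was 1.58 on the log2 scale (edgeR adjusted p = 0.0726), and with an offset for GC content and length its adjusted p was 0.00941.

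Krt18, the type I partner of Krt8, had 41.3 and 41.1 FPKM in the BV+ Ctrl libraries and 111 and 73.5 FPKM in the BV+ NRF1 OE libraries (log2 fold change 1.2 ± 0.321, edgeR adjusted p = 0.0455). This call was lost with DESeq2 on the same genes (adjusted p = 0.0548), with library size alone in place of TMM (edgeR adjusted p = 0.0537), with offsets for GC content only (0.0533), with the replicate block (0.0658), and without either BV+ Ctrl library (0.184 and 0.27), replicate 1 of BV+ NRF1 OE (0.37) or either BV- Ctrl library (0.0679 and 0.0563). In BV- cells it was at 13.9 and 16.2 FPKM with Ctrl and at 27.5, 44.9 and 17.7 FPKM with NRF1 OE. Every NRF1 OE library thus lay above both Ctrl libraries, replicate 3 only slightly. The log2 fold change in BV- cells was 1.02 ± 0.311 (edgeR adjusted p = 0.0457), and with an offset for GC content and length it was 0.59 and was not called (edgeR adjusted p = 0.142). Krt18 was 3.04-fold higher in BV+ than in BV- cells with NRF1 OE (edgeR adjusted p = 0.00345), a call that was lost without replicate 1 of BV+ NRF1 OE (edgeR adjusted p = 0.0674). The difference with Ctrl was 1.43 on the log2 scale (edgeR adjusted p = 0.0806), and it was called with the offset (edgeR adjusted p = 0.0122).

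Krt18 was above Krt8 in all 9 libraries. It exceeded Krt8 by 1.21- and 1.23-fold in BV+ NRF1 OE, by 1.43- and 1.38-fold in BV+ Ctrl, by 1.61- and 1.52-fold in BV- Ctrl, and by 2.30-, 1.77- and 1.77-fold in BV- NRF1 OE (ratios of FPKM). The 4 groups did not overlap in this ratio, and the gap between the chains was widest in BV- cells with NRF1 OE. Group differences in the log2 Krt8 to Krt18 ratio ranged from -0.31 to 0.66. In exact permutation tests, two-sided, they reached the smallest p that the group sizes allow, 0.333 for 2 against 2 libraries and 0.2 for 2 against 3, so that these groups are too small to reach 0.05. The adjusted p over the 12 ratio tests made (exact permutation tests) was 0.444.

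Krt19, a small type I keratin, and Krt7, a type II keratin of ducts and of trophoblast, were far less abundant. Krt8 and Krt18 together held between 95.8% and 97.7% of the summed FPKM of the 4 keratins in a library. Krt19 was at 2.17 and 2.75 FPKM in BV+ Ctrl and at 7.39 and 4.71 FPKM in BV+ NRF1 OE. Its libraries did not overlap, yet the log2 fold change of 1.33 ± 0.442 was not called (edgeR adjusted p = 0.0769). DESeq2 on the same genes called it (adjusted p = 0.0279), so that its 5 calls in BV+ cells held Krt19 in place of Krt18. It was also called on only the groups compared by edgeR (adjusted p = 0.0072) and DESeq2 (0.000868), with no filter on low counts (edgeR, 2.03e-05), and without replicate 2 of BV- NRF1 OE (edgeR, 0.00245). In BV- cells Krt19 was at 0.89 and 0.78 FPKM with Ctrl and at 1.21, 2.56 and 0.53 FPKM with NRF1 OE, and the groups overlapped. Between BV+ and BV- cells it was called with NRF1 OE (log2 fold change 2.10, edgeR adjusted p = 0.0063) and not with Ctrl (1.54, edgeR adjusted p = 0.346). The call with NRF1 OE was lost without replicate 1 of BV+ NRF1 OE (1.73, edgeR adjusted p = 0.0939), and the log2 fold change was 2.81 without replicate 2 of BV- NRF1 OE.

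Krt7 was the keratin with the fewest counts. It had 5 and 7 counts in the BV- Ctrl libraries, 28, 26 and 13 in BV- NRF1 OE, 26 and 51 in BV+ Ctrl and 85 and 56 in BV+ NRF1 OE. The 2 BV- Ctrl libraries stood below all the others. It rose with NRF1 OE in BV- cells (log2 fold change 2.03 ± 0.526, edgeR adjusted p = 0.0351), whereas the log2 fold change of 0.75 in BV+ cells was not called (edgeR adjusted p = 0.19). The call in BV- cells was lost in edgeR with the replicate block (adjusted p = 0.107), with block and offsets (0.0617) and with offsets for GC content only (0.0511). It was also lost in edgeR on only the groups compared (adjusted p = 0.0806) and without replicate 3 of BV- NRF1 OE (0.0595). Krt7 was also higher in BV+ than in BV- cells with Ctrl (2.65 on the log2 scale, edgeR adjusted p = 0.0351) and with NRF1 OE (1.37, edgeR adjusted p = 0.0272). The call with Ctrl was lost on counts thinned to the smallest library (2.61, edgeR adjusted p = 0.0521). It was also lost without replicate 1 of BV- NRF1 OE (edgeR adjusted p = 0.0617), and the value was 2.27 to 2.92 without single libraries. The call with NRF1 OE was lost with the replicate block (1.05, edgeR adjusted p = 0.126) and with block and offsets (0.97, edgeR adjusted p = 0.072). On only the groups compared it was lost by edgeR (1.4, adjusted p = 0.0571) and by DESeq2 (1.36, adjusted p = 0.0573). Without replicate 1 of BV- Ctrl the log2 fold change in BV- cells was 1.92 and was not called (edgeR adjusted p = 0.311). The call between BV+ and BV- cells with NRF1 OE was lost without replicate 1 of BV+ NRF1 OE (1.08, edgeR adjusted p = 0.213) or replicate 3 of BV- NRF1 OE (1.06, edgeR adjusted p = 0.0707).

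Vim, the filament of mesenchymal cells, had 17.0 and 17.1 FPKM in the BV+ Ctrl libraries and 48.9 and 36.8 FPKM in the BV+ NRF1 OE libraries. It rose 2.59-fold (log2 fold change 1.37 ± 0.195, edgeR adjusted p = 0.0124), with the smallest standard error of the 5 genes called in BV+ cells. In BV- cells it was at 9.15 and 10.8 FPKM with Ctrl and at 8.12, 12.6 and 10.4 FPKM with NRF1 OE. These groups overlapped, and the 95% interval of the log2 fold change in BV- cells ran from -0.31 to 0.48. Vim was higher in BV+ than in BV- cells with NRF1 OE (log2 fold change 2.03 ± 0.175, edgeR adjusted p = 2.13e-05). With Ctrl the difference of 0.74 on the log2 scale was not called (edgeR adjusted p = 0.136), although the libraries did not overlap.

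Nes, a filament protein of neural and other progenitors, showed the largest difference between the populations among the 9 genes with NRF1 OE. It had 4.21 and 4.45 FPKM in BV+ Ctrl and 16.2 and 9.27 FPKM in BV+ NRF1 OE, and it rose 3.03-fold (log2 fold change 1.60 ± 0.27, edgeR adjusted p = 0.0134). In BV- cells it was at 0.76 and 1.43 FPKM with Ctrl and at 1.62, 1.74 and 1.48 FPKM with NRF1 OE. The NRF1 OE libraries lay above both Ctrl libraries but the log2 fold change of 0.58 was not called (edgeR adjusted p = 0.15). With NRF1 OE, Nes was 7.80-fold higher in BV+ than in BV- cells (log2 fold change 2.96 ± 0.252, edgeR adjusted p = 1.92e-05). With Ctrl it was 3.84-fold higher (1.94 ± 0.297 on the log2 scale, edgeR adjusted p = 0.00869), and it and Krt7 were the 2 genes called there.

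The balance of Vim to Krt8 differed between the Ctrl populations. The log2 ratio of their FPKM was 0.09 and 0.02 in BV- Ctrl, near parity on that scale. In BV+ Ctrl it was -0.77 and -0.80, with Krt8 the higher in FPKM. Which gene is the higher depends on the length used. For Vim the counted length was 4743 bases against 2926 in its longest transcript, and for Krt8 both were 1958. The same lengths apply in every library, so differences between groups do not depend on them. In BV+ NRF1 OE the log2 ratio was -0.90 and -0.69, a range that overlapped BV+ Ctrl. In BV- NRF1 OE the libraries ranged from -1.0 in replicate 2 to 0.06 in replicate 3, and overlapped both Ctrl populations. The smallest exact permutation p among these 4 tests was 0.333, for BV+ against BV- with Ctrl (adjusted p = 0.444 over 12 tests), and it is the smallest that 2 against 2 libraries allow.

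**Figure D3:**
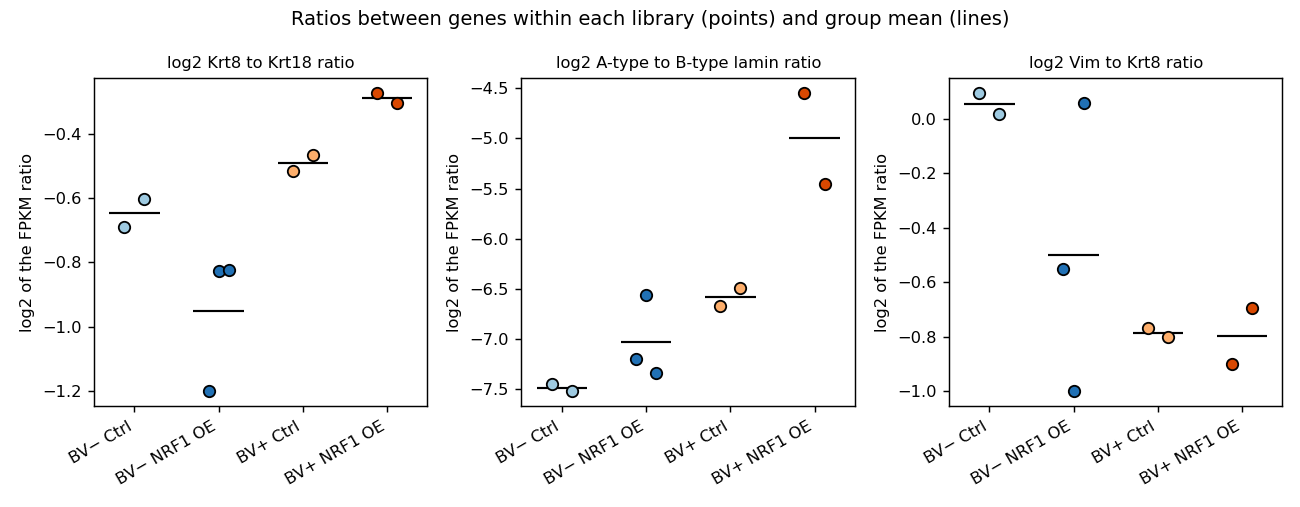
log2 ratios of FPKM within each library (points) and group means (lines): Krt8 to Krt18, A-type (Lmna) to B-type (Lmnb1 plus Lmnb2) lamin, and Vim to Krt8. The Krt8 to Krt18 ratio ranges from -1.20 to -0.28, and the lamin ratio from -7.52 to -4.55.

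Lmna, which encodes the A-type lamins A and C, had 2.15 and 2.34 FPKM in the BV+ Ctrl libraries and 8.66 and 4.95 FPKM in the BV+ NRF1 OE libraries. It rose 3.12-fold (log2 fold change 1.64 ± 0.282, edgeR adjusted p = 0.0141). Without replicate 1 of BV+ NRF1 OE it was 1.17 higher on the log2 scale and was no longer called. In BV- cells it was at 1.23 and 1.21 FPKM with Ctrl and at 1.38, 2.34 and 1.37 FPKM with NRF1 OE. The groups did not overlap but the log2 fold change of 0.50 was not called (edgeR adjusted p = 0.21). Lmna was 3.99-fold higher in BV+ than in BV- cells with NRF1 OE (log2 fold change 2.00 ± 0.254, edgeR adjusted p = 0.000318). With Ctrl it was 0.85 higher on the log2 scale, which was not called (edgeR adjusted p = 0.385).

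Lmnb1 was the gene of the 9 whose level varied least. It lay between 174 and 197 FPKM in the 9 libraries. Its groups overlapped in all 4 comparisons on the CPM scale, whereas on the FPKM scale the BV- NRF1 OE libraries (174, 186 and 191) lay below the BV- Ctrl libraries (192 and 197). The log2 fold changes were -0.03 with NRF1 OE in BV+ cells and -0.05 in BV- cells, and their 95% intervals ran from -0.25 to 0.19 and from -0.25 to 0.15. With offsets for GC content and length the values were -0.24 (edgeR adjusted p = 0.0776) and -0.28 (edgeR adjusted p = 0.0506), the latter outside its interval without offsets. BV+ and BV- cells differed by -0.05 with Ctrl and by -0.04 with NRF1 OE on the log2 scale (edgeR adjusted p = 1 and 0.834).

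Lmnb2, the other B-type lamin, had 22.9 and 23.2 FPKM in BV+ Ctrl, 28.8 and 25.6 in BV+ NRF1 OE, 23.3 and 24.1 in BV- Ctrl, and 29.3, 34.9 and 30.2 in BV- NRF1 OE. In both populations every NRF1 OE library lay above the Ctrl libraries. The rise was called in BV- cells (log2 fold change 0.45 ± 0.11, edgeR adjusted p = 0.0338) and not in BV+ cells (0.28 ± 0.12, edgeR adjusted p = 0.138). Transcript GC content of Lmnb2 was 57.6%, and with the offset for GC content and length these log2 fold changes were 0.10 (edgeR adjusted p = 0.403) and -0.06 (edgeR adjusted p = 0.611). Between BV+ and BV- cells with NRF1 OE, Lmnb2 was -0.23 on the log2 scale (edgeR adjusted p = 0.19), and with the offset it was -0.29 and was called lower in BV+ cells (edgeR adjusted p = 0.00922).

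The ratio of A-type to B-type lamin transcripts followed Lmna. B-type transcripts exceeded Lmna by 175- and 183-fold in BV- Ctrl, by 148-, 94.3- and 161-fold in BV- NRF1 OE, by 102- and 89.6-fold in BV+ Ctrl, and by 23.4- and 43.6-fold in BV+ NRF1 OE (ratios of FPKM). The B-type lamins were thus in large excess in all 9 libraries, and least so in BV+ cells with NRF1 OE. The size of the excess depends on the counted length, which was 5837 bases for Lmna against 3948 in its longest transcript. The mean log2 ratio was 1.58 higher with NRF1 OE in BV+ cells and 0.45 higher in BV- cells, with exact permutation p-values of 0.333 and 0.2, the smallest these group sizes allow (adjusted p = 0.444 over 12 tests).

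Whether the NRF1 OE effect differed between BV+ and BV- cells was tested by the difference of the log2 fold changes. edgeR called 0 of the 9 genes, as it called 0 of all 16903 genes (932 genes, or 5.51%, had an unadjusted p under 0.05). Of the 9 genes, 3 had an unadjusted p under 0.05, all with the larger effect in BV+ cells. These were Vim (difference 1.29 ± 0.263, edgeR adjusted p = 0.493), Lmna (1.14, adjusted p = 0.718) and Nes (1.02, adjusted p = 0.767). DESeq2 on the same genes called 1 of the 9, Vim (adjusted p = 0.00671). Without replicate 2 of BV- NRF1 OE, edgeR called Vim and Krt8. For Krt7 the difference was of the opposite sign, at -1.28 (95% interval -2.74 to 0.17), and for Lmnb1 it was 0.02 (95% interval -0.28 to 0.31).

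The likeness of profiles was measured as the root mean square difference of log2 CPM over the 9 libraries, each gene centred on its mean. It describes these 9 libraries, which share their groups and their GC trends. Among the 9 genes, Vim and Lmna were the pair most alike (0.229), followed by Lmnb1 with Lmnb2 (0.238), Krt8 with Krt18 (0.275) and Krt8 with Krt19 (0.276). Nes stood apart from both B-type lamins by 1.37. Among 9153 genes with a mean of at least 10 CPM, the nearest to Vim was Anxa5 (0.095) and the nearest to Lmna was Junb (0.0917). Krt8 was nearest to Car4 (0.218) and Rpl34 (0.226), the latter a ribosomal protein gene of a family with many near-identical copies and hence uncertain, and Krt18 to Flnc (0.252) and S100a11 (0.254). The nearest gene to Krt7 was Krt18 (0.381) and to Krt19 was Krt8 (0.276). Nes was nearest to Greb1 (0.176) and Bmp1 (0.184). Lmnb1, which varied little (SD of log2 CPM 0.059 over the 9 libraries), was nearest to Abcf1 (0.023). Lmnb2 varied more (SD 0.235) and was nearest to Nubp1 (0.0288).

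Other genes of the intermediate filament family were also measured. Of 38 further keratin, neurofilament and related genes in the tables, 5 had no count in any library and 13 passed the filter. In BV+ cells edgeR called 1 of the 13 higher with NRF1 OE and 1 lower, beside 6.24% and 1.78% of all genes. These were Des, the muscle filament desmin (log2 fold change 1.46, edgeR adjusted p = 0.0126), and Nefh, the heavy neurofilament chain (-0.67, edgeR adjusted p = 0.0462). In BV- cells edgeR called 0 of the 13 (0 at an unadjusted p under 0.05, 0 by DESeq2). Des and Nefm, the medium neurofilament chain, were higher in BV+ than in BV- cells with Ctrl (1.46 and 1.57 on the log2 scale, edgeR adjusted p = 0.014 and 0.00239). They were the 2 of the 13 called there, beside 1.10% of all genes called higher. With NRF1 OE, 4 of the 13 were higher in BV+ cells (9.90% of all genes), led by Krt20 (3.41 ± 0.693), Des (2.42) and Nefm (2.09), and 2 were lower, Nefh and Ina, named after their values were seen. Krt20 was near the floor, with 130 counts over all 9 libraries and 0.18, 0.04 and 0.09 FPKM in the BV- NRF1 OE libraries. In this comparison 9 of the 13 had an unadjusted p under 0.05 in edgeR, and DESeq2 called 6. Of all genes tested, edgeR called 1.78% lower with NRF1 OE in BV+ cells, 6.98% lower with NRF1 OE in BV- cells, and 0.0237% and 3.85% lower in BV+ than in BV- cells with Ctrl and with NRF1 OE. The median log2 fold change of the 13 was 0.06 with NRF1 OE in BV+ cells, beside 1.33 for the 9 genes above and 0.04 for all genes.

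Genes for proteins that anchor filaments were examined next. Of 14 plakin and desmosome genes tested, edgeR called Jup (plakoglobin, log2 fold change 0.47) and Pkp2 (plakophilin, 0.43) higher with NRF1 OE in BV+ cells, and Jup (0.41) in BV- cells. Dsc2 (a desmosomal cadherin, 1.88) and Dsp (desmoplakin, which ties keratins to desmosomes, 1.36) were higher in BV+ than in BV- cells with NRF1 OE, and 0 of the 14 were called with Ctrl (2 at an unadjusted p under 0.05, 0 by DESeq2). Of 24 partners of the nuclear lamina, the LINC complex gene Sun2 (0.62) and the inner membrane gene Lemd2 (0.59) rose with NRF1 OE in BV+ cells. In BV- cells Emd (emerin, 0.55), Lemd2 (0.53) and the farnesyltransferase subunit Fntb (0.43) rose, and 1 gene fell, Tmpo (-0.34), named here after its value was seen. Between BV+ and BV- cells, edgeR called Syne1 (0.97) and Narf (0.56) higher in BV+ cells with NRF1 OE, and 0 of the 24 with Ctrl (0 at an unadjusted p under 0.05, 0 by DESeq2). Of all genes tested, 6.24% were called higher with NRF1 OE in BV+ cells, 10.2% in BV- cells and 9.90% in BV+ against BV- cells with NRF1 OE. The edgeR counts of 2, 3 and 2 higher among the 24 lamina partners lay near these shares. With so few genes, the counts of 2, 1 and 2 higher among the 14 plakin and desmosome genes also lay near them. In the same 3 comparisons and either direction, 9, 14 and 7 of the 24 had an unadjusted p under 0.05 in edgeR. DESeq2 called 2, 8 and 2 of the 24. Of the 14, 5, 4 and 5 had an unadjusted p under 0.05 in edgeR, and DESeq2 called 3, 3 and 2. No share of all genes is given here for these further counts.

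Markers of other cell types moved with some of these differences. edgeR called 6.24% of all genes higher and 1.78% lower with NRF1 OE in BV+ cells, and 10.2% and 6.98% in BV- cells. Between BV+ and BV- cells, 1.10% were higher in BV+ cells and 0.0237% lower with Ctrl, and 9.90% and 3.85% with NRF1 OE. Of 14 mesenchyme markers tested, edgeR called 6 higher and 1 lower (Pdgfra) with NRF1 OE in BV+ cells, 1 higher and 1 lower in BV- cells, and 5 and 8 higher in BV+ than in BV- cells with Ctrl and with NRF1 OE. The summed FPKM of the 16 listed was 120 to 124 in BV- Ctrl, 131 to 138 in BV- NRF1 OE, 144 in both BV+ Ctrl libraries and 193 to 218 in BV+ NRF1 OE, which is the order that the 4 keratins, Vim, Nes and Lmna also took by group mean. Col1a2 went from 8.21 to 8.42 FPKM in BV+ Ctrl to 29.7 to 47.9 FPKM in BV+ NRF1 OE, and was at 0.59 to 1.35 FPKM in BV- libraries. Simple epithelia are a main site of Krt8 and Krt18. Of 16 markers of simple epithelium, edgeR called 1 higher with NRF1 OE in BV+ cells (Cldn4), near the 6.24% of all genes. There 8 of either direction had an unadjusted p under 0.05 in edgeR, and DESeq2 called 7. In BV- cells edgeR called 7 higher (10 at an unadjusted p under 0.05, 7 by DESeq2), beside 10.2% of all genes. Tested for a different response to NRF1 OE in the 2 populations, 0 of the 16 were called by edgeR (1 at an unadjusted p under 0.05, 0 by DESeq2). Between BV+ and BV- cells it called 0 of the 16 with Ctrl (1 at an unadjusted p under 0.05, 0 by DESeq2), and 1 higher and 2 lower in BV+ cells with NRF1 OE. Their summed FPKM was 237 to 249 in BV+ Ctrl, 254 to 265 in BV+ NRF1 OE, 261 to 272 in BV- Ctrl and 284 to 355 in BV- NRF1 OE, an order unlike that of the keratins, Vim, Nes and Lmna. Of 7 trophectoderm markers tested other than keratins, edgeR called 1 higher with NRF1 OE in BV+ cells (Gata2), beside 6.24% of all genes. It called 2 higher in BV+ than in BV- cells with NRF1 OE (Gata2 and Hand1), beside 9.90% of all genes. No marker of these lists was at 0 counts in all 9 libraries. The part of other cell types in the results on the 9 genes was not tested.

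**Figure D4:**
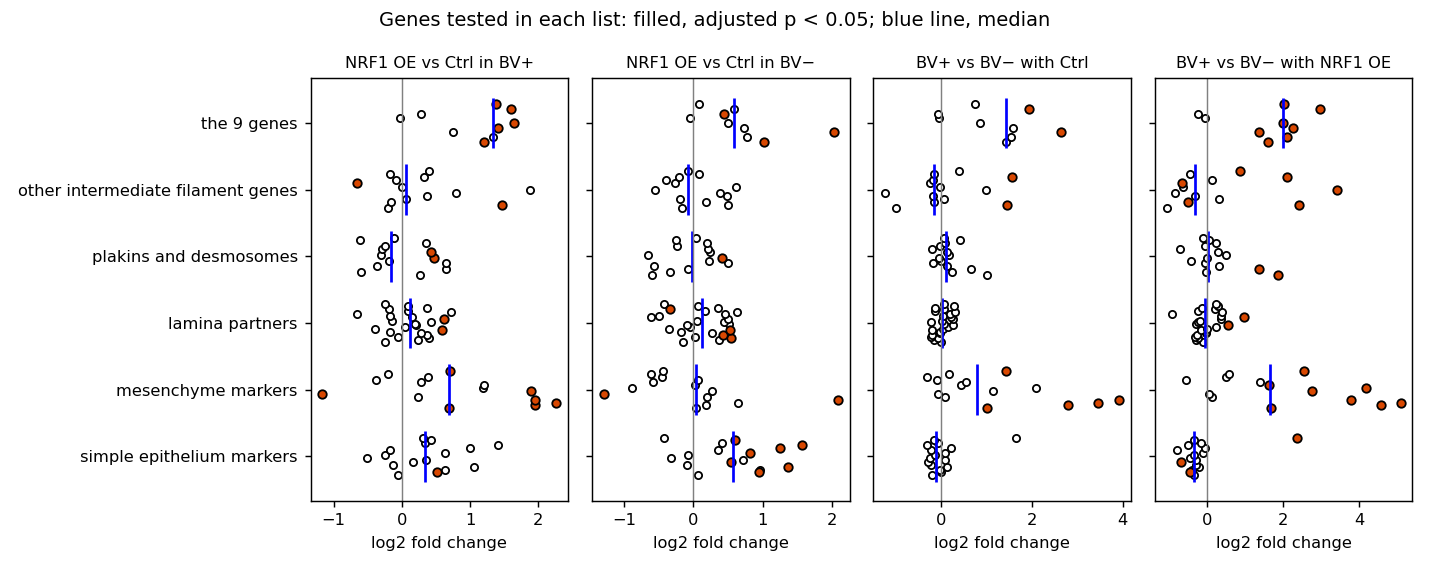
edgeR log2 fold change of each gene tested in 6 lists (points, filled at an adjusted p under 0.05) with the list's median (blue line), in the 4 comparisons. The medians of the 9 genes are 1.33, 0.58, 1.43 and 2.00, and those of the lamina partners lie between -0.06 and 0.12.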

How the data were processed

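Per the submitters' processing notes, which name no role, HISAT2 2.0.1, HTSeq 0.6.1 and the build GRCm39 were used by the authors. They deposited, for each of the 9 libraries, raw counts, which are not normalized, and FPKM made from those counts, the counted gene length and the total. Whether counting used strand is not given in the sources used here. Levels are the deposited FPKM or CPM after TMM scaling.

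Counts were tested with edgeR 4.0.16 in R 4.3.3: 1 quasi-likelihood fit of all 9 libraries with a term per group, TMM, filterByExpr (16903 genes left), two-sided tests, and Benjamini-Hochberg adjustment over all genes tested. A gene was called at an adjusted p under 0.05. Procedures were tested on simulated data. Ratios were tested by exact permutation (scipy 1.17.1). GC content and length came from a GRCm38 annotation, found for 98.6% of genes tested, and offsets were natural splines with 5 degrees of freedom. DESeq2 1.42.0 and other alternatives are given at the end.

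The 9 genes and all lists were chosen with earlier results of these data known. Named beside the 9 were, per companion list and comparison, up to 3 called genes with the largest change, and the 2 genes of nearest profile. Marker genes, and genes beyond this rule, were named after their values were seen. Lists: mesenchyme, simple epithelium, trophectoderm, germ cell, visceral endoderm and neural progenitor markers.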

Additional observations from a re-analysis of the deposited data

How the results depend on the processing

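Over all alternatives tried, the 36 combinations of a gene and a comparison gave 726 values, of which 713 kept their direction and 601 also their side of the adjusted p of 0.05, while 73 lost a call and 39 gained one. None of the 17 called combinations changed direction. The number of the 9 genes called with NRF1 OE in BV+ cells was 5 in the main fit. Leaving out single libraries gave 0 to 6, and the replicate number as a block gave 0 (6 at an unadjusted p under 0.05) but 5 with the offsets for GC content and length. With NRF1 OE in BV- cells it was 3. It became 5 with no filter on low counts, 0 with edgeR on only the groups compared, 1 with the offsets, 0 with the replicate block (5 at an unadjusted p under 0.05), 0 with both, 0 with offsets for GC content only, and 0 to 3 when single libraries were left out. For BV+ against BV- with Ctrl it was 2. It became 7 with the study's threshold (unadjusted p under 0.05 and an absolute log2 fold change above 0.58), 7 with no filter, 7 with edgeR and 7 with DESeq2 on only the groups compared, 1 on counts thinned to the smallest library, 4 with the offsets, with the replicate block and offsets, and with offsets for GC content only, 1 with the replicate numbers crossed, and 0 to 7 without single libraries. With NRF1 OE it was 7, and 4 to 7 without single libraries. For the difference of effects it was 0, 3 with the study's threshold, 3 with no filter, 1 with DESeq2, and 0 to 2 without single libraries. For BV+ against BV- with NRF1 OE it became 6 with the replicate block and 6 with edgeR on only the groups compared. It was 5 with DESeq2 on those groups and 8 with the offsets. Where a library left out leaves 1 in its group, that one is assumed to vary like the other groups. Offsets for GC content only and the crossed numbers were chosen after seeing the data.

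Direction changed only for small effects. Lmnb1 with NRF1 OE in BV+ cells was -0.03, 0.00216 on thinned counts and -0.0803 to 0.0266 without single libraries, and it was -0.243 with the offsets (-0.281 in BV- cells). Lmnb2 there was 0.28, but -0.0619 with the offsets, -0.0621 with the replicate block and offsets, and -0.0853 with offsets for GC content only. Vim in BV- cells ranged from -0.0918 to 0.238 without single libraries. Lmnb1 between BV+ and BV- with NRF1 OE was 0.00234 with the replicate block, 0.00416 with block and offsets, and -0.0906 to 0.0165 without single libraries. The log2 Vim to Krt8 ratio with NRF1 OE in BV+ cells ranged from -0.116 to 0.092 without single libraries. The cause of these changes was not tested. Pairing by replicate number was not shown: deviations of same-numbered libraries correlated between -0.295 and 0.243. Both values for BV- Ctrl with BV- NRF1 OE were positive (0.204 and 0.243). Between groups of 2 libraries both numbers gave the same value, so that this check cannot decide the question. Krt7 had 5 and 7 counts in the BV- Ctrl libraries.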

Other observations

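Between the populations, visceral endoderm markers that passed the test were lower in BV+ cells, where the keratins, Vim, Nes and Lmna were higher. Of 16 tested, edgeR called 6 lower and 0 higher in BV+ than in BV- cells with NRF1 OE, among them Apoa1 (log2 fold change -2.70), Ttr (-2.27) and Amn (-1.92), beside 3.85% of all genes called lower. Apoa1, Ttr and Amn encode 2 secreted carriers and a partner of cubilin in endocytosis. With Ctrl 1 was lower, Apob (-1.93), beside 0.0237% of all genes. Against Ctrl, NRF1 OE libraries had 2 of the 16 lower in BV+ cells (Cubn and Srgn, beside 1.78% of all genes) and 5 lower in BV- cells (Gata6, Srgn, Apob, Dab2 and Cubn, beside 6.98%). Their summed FPKM was 51.2 to 54.7 in BV+ NRF1 OE, 61.8 to 65.7 in BV+ Ctrl, 82.7 to 84.2 in BV- Ctrl and 65.0 to 92.7 in BV- NRF1 OE.

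Of 10 neural progenitor markers tested, edgeR called 5 higher in BV+ than in BV- cells with NRF1 OE, as Nes was, among them Fabp7 (log2 fold change 2.71), Pax3 (2.54) and Olig2 (2.48), beside 9.90% of all genes called higher. The others were not called, and the values of Sox2 (-0.23) and Tubb3 (-0.27) were below 0. With Ctrl it called 0 of the 10 (7 at an unadjusted p under 0.05, 1 by DESeq2). The summed FPKM of the 14 listed did not take this order, at 266 to 323 in BV+ NRF1 OE and 321 to 329 in BV- NRF1 OE. The 7 simple epithelium markers that edgeR called higher with NRF1 OE in BV- cells were led by Rab25 (1.56), Cldn7 (1.37) and Prss8 (1.25). In BV+ cells their log2 fold changes were 1.40, 1.06 and 0.99, which edgeR did not call, although DESeq2 called 7 of the 16 markers there too.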
